A study of Mus musculus with 2 samples.

Results

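EBF1 is a DNA-binding transcription factor that B lymphocytes need for their specification and upkeep, and it binds a large number of sites spread unevenly over the chromosomes. Chromatin immunoprecipitation followed by sequencing (ChIP-seq) reads such sites as short peaks of fragments over an input library of the same chromatin. Fragments outside the peaks are mostly DNA that came along without being bound by the factor, and their amount can differ between regions of the genome. The regions described here are the stretches of the mouse autosomes in which no EBF1 peak was listed at all. They were windows of 1 Mb, laid from position 1 of chromosomes 1 to 19 in the mm8 build, chosen by their reads and peaks: at least 2000 input reads and no peak centre. Of 2383 windows with enough input, 858 (36.0%) were free of peaks. Another 1071 windows held 1 to 5 peaks and served for comparison, and 454 held 6 or more.

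The data came from spleens of adult C57BL/6 mice, from which cells carrying CD43, AA4.1, CD9, CD4 or CD8 had been removed with magnetic beads, leaving cells that were nearly all mature follicular B cells by B220, CD23 and CD21. The 2 groups were EBF1 ChIP, precipitated with a custom rabbit polyclonal antibody, and Input, both from formaldehyde-fixed and sonicated chromatin. Each group held 1 library, replicate 1, and the labels do not say how many animals were pooled. The reads are genomic DNA, so no marker gene could be checked against the cell type. On chromosomes 1 to 19, X and Y the ChIP library held 24337709 reads and the input 23033569. Every ratio below is ChIP reads over input reads, divided by the ratio of these totals, and 95% intervals are exact conditional binomial intervals that cover counting error only. Without replicates there is no test between the libraries. The peaks that excluded windows from the peak-free class were called on the same ChIP reads, so the ratios of that class describe it and support nothing further.

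Most peak-free windows carried less ChIP signal than input after scaling. Their 6741053 ChIP reads and 7421159 input reads gave a pooled ratio of 0.860 (0.859 to 0.861). The ratio ran from 0.716 in the lowest window through a median of 0.829 to 1.26 in the highest, with quartiles at 0.783 and 0.909. Windows with 1 to 5 peaks ran from 0.733 through 1.01 to 1.51, with a pooled ratio of 1.02, so the classes overlapped over most of their range. The pooled ratio of the peak-free windows was 0.846 times that of the windows with 1 to 5 peaks (0.845 to 0.847, an interval on the log scale from the read counts). The ratio changed in steps with the number of peaks. The median was 0.829 with 0 peaks, 0.926 with 1, 0.995 with 2, 1.04 with 3, 1.07 with 4 and 1.10 with 5. A window with 1 peak is the nearest neighbour of the class across its threshold, and the lowest of these had a ratio of 0.733.

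**Figure D1:**
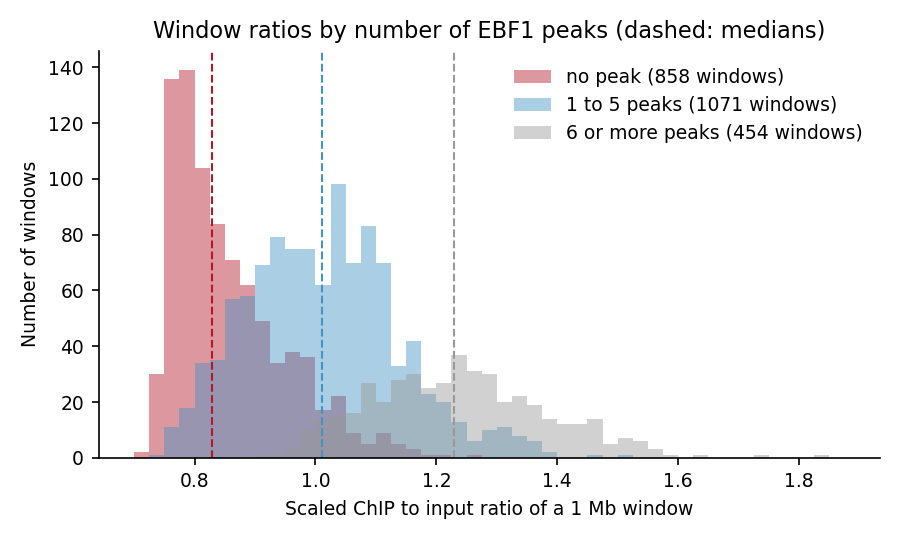
Distribution of the scaled ChIP to input ratio (x axis, no unit) over 1 Mb windows (y axis, number of windows), for windows with no peak, with 1 to 5 peaks and with 6 or more. The peak-free windows pile up between 0.75 and 0.85, with a tail to 1.26, and their median of 0.829 lies below the 1.01 of windows with 1 to 5 peaks.

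A ratio below 0.8 was found in 307 of the 858 peak-free windows (35.8%), against 14.1% of all windows with enough input. The interval lay wholly below 1 in 740 peak-free windows (86.2%), against 49.2% of all windows. A ratio of 1 or more was found in 73 peak-free windows (8.51%). It was found in 559 of 1071 windows with 1 to 5 peaks (52.2%) and in 438 of 454 with 6 or more (96.5%). The interval lay wholly above 1 in 53 peak-free windows, in 482 windows with 1 to 5 peaks and in 424 with 6 or more. These shares follow in part from the choice of windows by the same reads. The distribution was lopsided. The lower quartile lay 0.0669 above the minimum, whereas the maximum lay 0.354 above the upper quartile.

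Counting error was small beside these differences. The median peak-free window had 7689 ChIP reads and 8780 input reads, and its interval reached 0.0258 to either side of the ratio at the median. Reads on the plus and the minus strand gave 2 readings of each window from the same libraries. The strands differed by 0.0216 at the median, and Pearson's r between the plus and minus values over the 858 windows was 0.94. Both come from the same libraries, so this shows the precision of the count and not that of the experiment.

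Input depth differed between the classes as well. The median was 8780 input reads in peak-free windows and 9440 in windows with 1 to 5 peaks, and 962 against 975 of the 1000 bins of 1 kb held an input read. Within classes of input depth the ratio of the peak-free windows remained the lower one. At 8000 to 9000 input reads the median ratio was 0.803 in 429 peak-free windows and 0.918 in 211 windows with 1 to 5 peaks. At 9000 to 10000 reads it was 0.911 in 315 windows and 1.03 in 613. At 6000 to 8000 reads it was 0.778 in 77 windows and 0.911 in 59. Below 6000 reads it was 0.833 in 25 windows and 0.935 in 27, and from 10000 reads it was 0.890 in 12 and 1.06 in 161. Within the peak-free class the ratio thus also moved with input depth, by 0.108 between the 8000 to 9000 class and the next. The part that input depth and the covered length have in the ratio was not tested.

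Few windows lay near the limit on input. The 3 peak-free windows just above it held 2021, 2033 and 2093 input reads, with ratios of 0.716 (chromosome 7, 7000001 to 8000000), 0.921 (chromosome 14, 40000001 to 41000000) and 1.02 (chromosome 12, 19000001 to 20000000). The 3 just below it held 1934, 1861 and 1859 reads, with ratios of 0.873, 0.728 and 0.754. In these windows 493 to 672 bins of 1 kb held an input read, so much of their length carried none. The lowest ratio of the whole class, 0.716, came from the shallowest window, with an interval of 0.670 to 0.766. In all, 90 windows lay under the limit, and 1 peak fell in them.

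Peak-free windows were spread over all 19 chromosomes in unequal shares. The share was highest on chromosome 12, where 56 of 115 windows (48.7%) were free of peaks, followed by 45.3% on chromosome 14 and 43.8% on chromosome 1. It was lowest on chromosome 11, with 26 of 119 (21.8%), then chromosome 17 with 23 of 92 and chromosome 19 with 15 of 59. The level of the ratio differed less. Its median over peak-free windows ran from 0.808 on chromosome 4 to 0.869 on chromosome 9, and on all 19 chromosomes it lay below the median of that chromosome's windows with 1 to 5 peaks.

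Position along the chromosome mattered mostly at the far end. Mouse chromosomes have their centromere at the start of the numbering. Each of the 19 chromosomes was cut into 10 equal parts between its first and last window with enough input. In the first of these parts 45.2% of windows were free of peaks. The share lay between 32.0% and 42.7% from the second to the eighth part, then fell to 26.4% in the ninth and 18.8% in the last. In the last 5 Mb, 20 of 94 windows were free of peaks, against 36 of 95 in the first 5 Mb. The outermost window alone did not show this order, being free of peaks on 3 of 19 chromosomes at the start and 5 of 19 at the far end. The ratio of the peak-free windows followed no such slope as their share did over the 10 parts. Its median was 0.796 at its lowest, in the fifth part, and 0.868 at its highest, in the ninth.

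Peak-free windows lay side by side in 377 runs, and a window under the input limit or the end of a chromosome closed a run. Single windows made up 184 of the runs and pairs 91, while 61 runs held 3 or 4 windows, 27 held 5 to 7 and 14 held 8 to 14. The 41 runs of at least 5 windows together covered 284 windows, 33.1% of the class. Measured between neighbouring peak centres, the autosomes had 7307 gaps with a median of 0.0783 Mb. Of these, 579 were at least 1 Mb long, 248 at least 2 Mb, 50 at least 5 Mb and 6 at least 10 Mb.

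The longer the run, the lower its ratio lay. The median window ratio was 0.912 in single windows, 0.855 in pairs, 0.816 in runs of 3 or 4, 0.799 in runs of 5 to 7 and 0.781 in runs of 8 to 14. The quartiles overlapped between neighbouring classes, at 0.838 to 0.993 for single windows and 0.807 to 0.927 for pairs. They were apart between single windows and the longest class, whose upper quartile lay below the lower quartile of single windows. A ratio below 0.8 was found in 26 of 184 single windows (14.1%) and in 84 of the 132 windows of the longest class (63.6%). Median input reads fell alongside, from 9052 in single windows to 8495 in the longest class, and how far input depth and run length act separately was not tested.

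**Figure D2:**
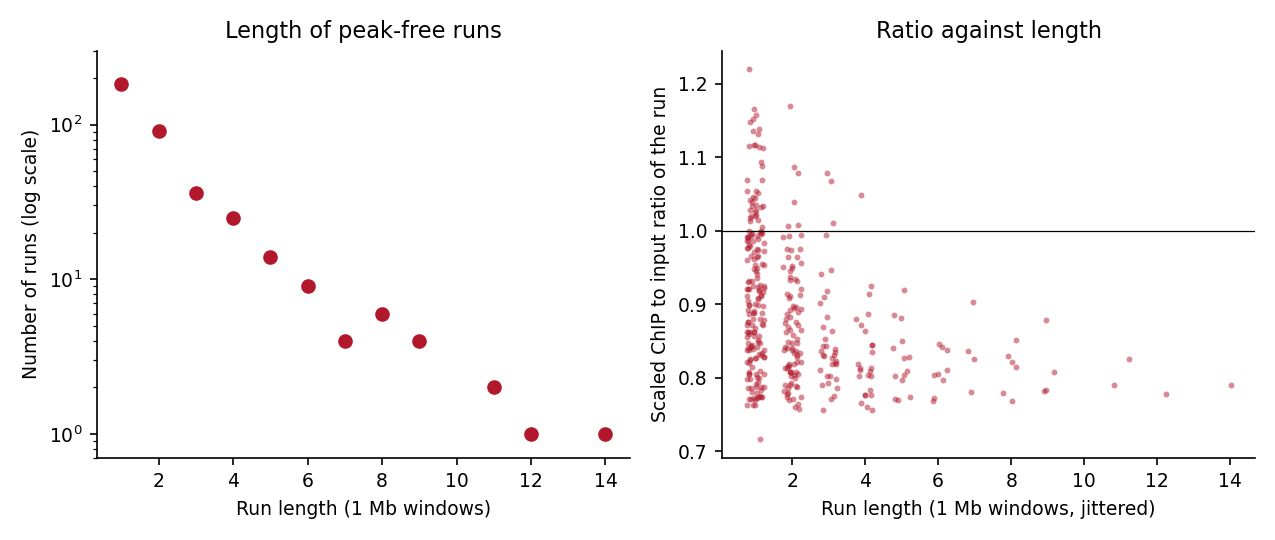
Left, number of peak-free runs (y axis, log scale) against run length in 1 Mb windows (x axis). Right, scaled ChIP to input ratio of each run (y axis) against its length (x axis, points shifted sideways at random to separate them), with a line at 1; short runs spread from 0.716 to 1.22, whereas the 4 runs of 11 or more windows lie between 0.778 and 0.826.

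Within a run the middle was lower than the ends. In the 102 runs of at least 3 windows, the 204 end windows had a median ratio of 0.829 and the 288 windows between them 0.786, with pooled ratios of 0.854 (0.852 to 0.856) and 0.811 (0.810 to 0.813). The mean of the inner windows lay below the mean of the ends in 79 of the 102 runs (77.5%). The window with peaks that adjoined an end had a median ratio of 0.942, and the end window was the lower of such a pair in 171 of 201 cases (85.1%). Peaks in the adjoining windows went along with a higher ratio. With 0 peaks in both adjoining windows the median was 0.786 (297 windows), with 1 peak 0.814 (147), with 2 or 3 peaks 0.853 (165), with 4 to 7 peaks 0.880 (180) and with at least 8 peaks 0.941 (69).

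The fall could be followed by distance from the nearest peak. In bins of 10 kb inside peak-free windows, the pooled ratio was 0.963 (0.939 to 0.988) within 0.05 Mb of a peak centre and 0.960 (0.953 to 0.967) at 0.1 to 0.2 Mb. It was 0.940 at 0.2 to 0.5 Mb, 0.885 at 0.5 to 1 Mb, 0.842 at 1 to 1.5 Mb and 0.819 at 1.5 to 2 Mb. Beyond 2 Mb it changed little, at 0.811 (0.809 to 0.813) from 2 to 3 Mb, 0.799 (0.795 to 0.803) from 3 to 4 Mb and 0.802 (0.798 to 0.806) farther out. Input reads per bin fell from 95.2 in the nearest class to 84.3 in the farthest. The median bin of the class lay 1.10 Mb from a peak centre, and 21.6% of bins lay at least 2 Mb away.

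At matched distance, windows with peaks and windows without were closer to each other than the classes as a whole. Bins without a peak centre in windows with 1 to 5 peaks had a ratio of 0.977 at 0.2 to 0.5 Mb, against 0.940 in peak-free windows. At 0.5 to 1 Mb the values were 0.904 (0.901 to 0.906) and 0.885 (0.883 to 0.887). Near peaks they were farther apart, at 1.06 and 0.963 within 0.05 Mb. These near bins are few in peak-free windows, 122 of 10 kb, because they lie at window borders.

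Lined up on the outermost peak, the 50 gaps of at least 5 Mb showed where the level changed. Bins close to peaks were left out on the outer side. The first 0.1 Mb inside the gap also held fewer bins, 933 against 1000 in each later step. Outside the gap the pooled ratio was 0.945 at 1 to 2 Mb, 0.970 at 0.5 to 1 Mb and 0.982 (0.978 to 0.986) in the last 0.5 Mb before the peak. Inside it was 0.917 (0.913 to 0.921) in the first 0.5 Mb, 0.844 in the next, 0.817 at 1 to 1.5 Mb, 0.812 at 1.5 to 2 Mb and 0.812 at 2 to 2.5 Mb. Most of the fall took place within about 1 Mb of the last peak.

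**Figure D3:**
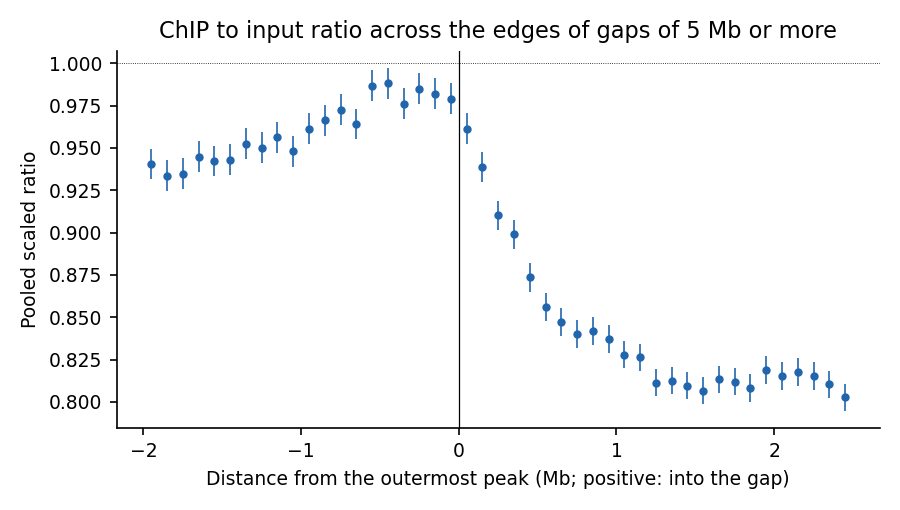
Pooled scaled ChIP to input ratio in steps of 100 kb (y axis) against distance from the outermost peak (x axis, Mb, positive into the gap) over both ends of 50 gaps of at least 5 Mb; bars are 95% counting intervals. The ratio is 0.982 in the 0.5 Mb before the peak and levels off near 0.812 from 1.5 Mb into the gap.

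The longest peak-free run lay on chromosome 14 from 79000001 to 93000000, 14 windows between peaks centred at 78215025 and 93425365, a gap of 15.2 Mb. Its ratio was 0.791 (0.784 to 0.797) and its windows ran from 0.752 through a median of 0.767 to 0.912. The 2 highest were neighbours in the middle of the run. The window from 85000001 had 9009 ChIP and 9350 input reads (0.912), and the next one, from 86000001, had 7674 and 8123 (0.894). The window from 84000001 (0.805) and the one from 87000001 (0.776) were lower on either side. In steps of 100 kb the median of the run was 0.779, and its highest step, from 86100001 to 86200000, reached 1.07, the single step of 138 at or above 1.

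The next runs had the same low floor with different edges. The run of 12 windows on chromosome 15 from 13000001 to 25000000 had a ratio of 0.778 (0.771 to 0.785), and its first window, at 0.878, was the highest. The other 11 windows lay between 0.748 and 0.797. On chromosome 14 the run of 11 windows from 105000001 to 116000000 had a ratio of 0.791 (0.783 to 0.798). Its last 3 windows, at 0.851, 0.829 and 0.846, stood above the 8 before them, at 0.758 to 0.793. The run of 11 windows on chromosome 12 from 41000001 to 52000000 was less even, with a ratio of 0.826 (0.818 to 0.834). Its windows ran from 0.755 (from 48000001) to 0.922 (from 41000001), with a second rise to 0.904 in the window from 45000001. Covered bins of 1 kb made up 91.8% to 96.4% of these 4 runs. With both sides pooled, the 3 Mb on either side of them had median ratios of 0.863 to 0.992 in steps of 100 kb. The sides of a run could differ. After the longest run no step exceeded 0.835 when rounded, whereas before it the lowest step was 0.891. Part of the side after it belonged to another peak-free run, from 94000001 to 100000000. On chromosome 12 the side before the run held part of the peak-free run from 37000001 to 40000000, with a ratio of 0.799.

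**Figure D4:**
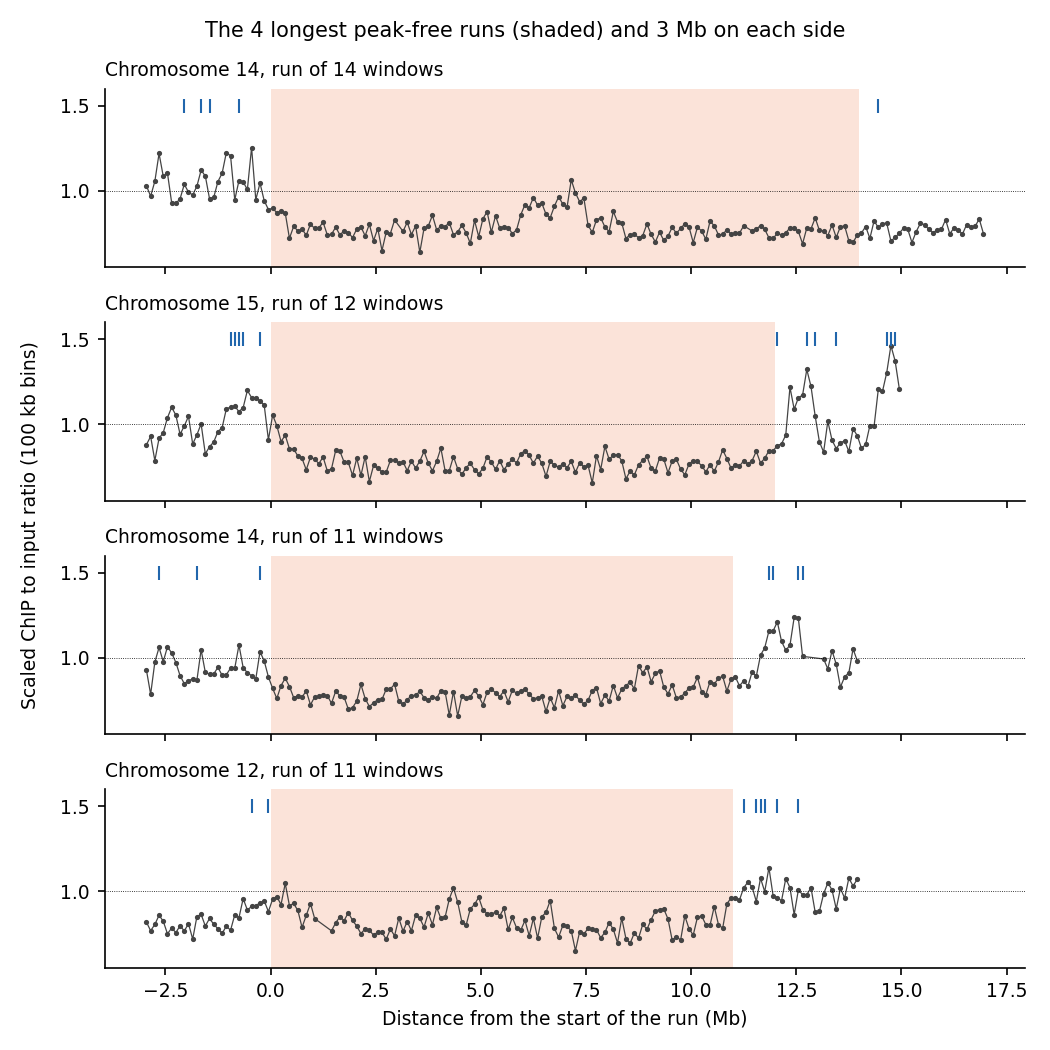
Scaled ChIP to input ratio in bins of 100 kb (y axis) along the 4 longest peak-free runs, shaded, and 3 Mb on each side, against distance from the start of the run (x axis, Mb). Blue ticks mark bins with a listed peak; within the runs the medians of the bins lie between 0.774 and 0.816, and 4 bins in all reach 1 or more.

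After these, 4 runs held 9 windows and 6 held 8. On chromosome 3 the run from 70000001 to 79000000 had a ratio of 0.782 (0.774 to 0.790) and the run from 42000001 to 51000000 one of 0.784 (0.775 to 0.792). The run on chromosome 2 from 39000001 to 48000000 had a ratio of 0.808. The run on chromosome 1 from 14000001 to 23000000 was higher, at 0.878 (0.869 to 0.887), and its windows ran from 0.779 to 0.956. The 6 runs of 8 windows spread from 0.768 to 0.852. They lay on chromosome 5 from 55000001 (0.768) and from 79000001 (0.779), chromosome 4 from 74000001 (0.815), chromosome 1 from 146000001 (0.822), chromosome 6 from 14000001 (0.830) and chromosome 8 from 58000001 (0.852). The last of these lay in a gap of 10.8 Mb between peaks.

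By the authors' scores, the peaks at the edges of long runs were close to the others. The 78 peaks that bordered runs of at least 5 windows had a median score of 6.20, against 6.07 for the other 7248 autosomal peaks. Scores from 10 upward made up 20.5% of the former and 18.9% of the latter.

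The extremes of the class differed in their surroundings. Among windows with at least 5000 input reads, the lowest was on chromosome 16 from 68000001 to 69000000, where 5950 ChIP reads stood against 7794 in the input (ratio 0.723, 0.698 to 0.747). It was followed by neighbours on chromosome 1, from 149000001 (0.730) and from 148000001 (0.731), and by windows on chromosome 3 from 71000001 (0.732) and from 44000001 (0.734). Their intervals overlap, so the order of these 5 is not resolved at this depth. All 5 lay in runs of 4 to 9 windows with 0 peaks in the adjoining windows. None of their 50 kb bins reached a ratio of 1, and the highest was 0.910.

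The highest peak-free window was on chromosome 8 from 90000001 to 91000000, where 12189 ChIP reads stood against 9132 in the input (ratio 1.26, 1.23 to 1.30). The next were on chromosome 4 from 127000001 (1.22), chromosome 14 from 23000001 (1.18, 1.15 to 1.22), chromosome 1 from 184000001 (1.17) and chromosome 7 from 136000001 (1.16). They lay in runs of 1 to 3 windows, with 4 to 18 peaks in the adjoining windows. The rise reached most 50 kb bins of each window but was uneven. On chromosome 4, the 11 bins of 50 kb above 1.2 formed 1 stretch of 550 kb with a ratio of 1.34. On chromosome 8, 8 of 11 such bins formed a stretch of 400 kb with a ratio of 1.48. At least 15 of the 16 to 20 bins of 50 kb reached 1 in each of these 5 windows, and the median 10 kb bin had a ratio between 1.15 and 1.26.

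Sorted by ratio, the whole class showed the same order. Distances here were taken from the border of the window, not from its bins. The 307 windows below 0.8 lay in runs with a median of 5 windows and had a median of 0 peaks in the adjoining windows. Their border was 1202 kb from the nearest peak at the median. The 73 windows at 1 or more lay in runs with a median of 1 window, had 5 peaks in the adjoining windows and had their border 211 kb from the nearest peak. Single windows made up 53.4% of the latter and 8.47% of the former. Median input reads were 9437 in the high group and 8411 in the low group. These groups were cut by their ratio, so they are a description of the range and not classes of their own.

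Inside the windows the signal was also more even without peaks. The spread was taken as the SD of log2 of the scaled ratio over 10 kb bins with at least 50 input reads, and the SD that counting alone gives was removed in quadrature. In 843 peak-free windows the median SD was 0.26, counting accounted for 0.23, and the remaining spread was 0.13 (quartiles 0.10 and 0.17). In 1057 windows with 1 to 5 peaks the remaining spread was 0.18 (0.15 and 0.22), and with the bins that hold a peak centre left out it was 0.17. The quartiles overlapped, and 52 peak-free windows had no spread beyond counting, against 9 windows with 1 to 5 peaks. In single peak-free windows the remaining spread was 0.15, and in runs of 8 to 14 windows it was 0.12. Over the 843 windows it rose with the ratio of the window (Pearson's r 0.37, Spearman's rho 0.37, both from the same reads).

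The 10 kb bins of peak-free windows had a median ratio of 0.841, and 5% of them lay below 0.601. A ratio above 1.2 was found in 3964 of 78723 bins (5.04%), against 21.0% of bins in all windows with enough input and 20.8% in windows with 1 to 5 peaks. Windows with the widest remaining spread were on chromosome 7 from 48000001 (0.36), chromosome 5 from 138000001 (0.32), chromosome 9 from 36000001 (0.31) and chromosome 1 from 73000001 (0.31). They were chosen after their values were seen. Their ratios as whole windows were 0.971, 1.03, 0.976 and 1.09.

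Along a run, the ratios of nearby 100 kb bins were alike. These ratios include differences in level between windows and runs, so they do not describe the remaining spread within windows. That spread was 0.170 in 5 kb bins and 0.0783 in 50 kb bins of peak-free windows. Between 100 kb bins that were neighbours in the same run, Pearson's r of the log2 ratio was 0.76 (8017 pairs). It was 0.57 at 0.5 Mb, 0.37 at 1 Mb, 0.21 at 2 Mb and 0.05 at 4 Mb. In windows with 1 to 5 peaks, with both bins in the same unbroken row of such windows, the values were 0.75, 0.49, 0.33, 0.17 and -0.03. Bins share the libraries and their neighbours' regions, and in both classes pairs at long distances come only from long runs. Neighbouring peak-free windows of 1 Mb had a Pearson's r of 0.62 over 481 pairs and differed by 0.0362 at the median.

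Raised stretches without a peak were rare. Among bins of 50 kb with at least 250 input reads, 271 of 16694 (1.62%) in peak-free windows had a ratio above 1.2, against 17.1% in all windows with enough input and 14.2% in windows with 1 to 5 peaks. They formed 186 stretches, of which 144 were single bins. The longest, on chromosome 4 from 127450001 to 128000000, covered 550 kb and ended at the border of its window. Its 7251 ChIP reads and 5110 input reads gave a ratio of 1.34 (1.30 to 1.39), and its nearest bin was centred 386 kb from a peak. The next, on chromosome 8 from 90550001 to 90950000, covered 400 kb of the highest peak-free window, with a ratio of 1.48 (1.42 to 1.54), 164 kb from a peak. On chromosome 1, 250 kb from 73750001 to 74000000 had a ratio of 1.49 (1.41 to 1.57). Stretches were picked for a high ratio, which raises these values. At the other end, 37.1% of the 50 kb bins of peak-free windows had a ratio below 0.8, against 18.0% of those in all windows.

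Places of focal enrichment were sought in 1 kb bins with a ratio of at least 5 and 20 ChIP reads or more. Peak-free windows held 148 such bins in 117 windows, 0.0180% of 821546 bins with a read, against 0.164% over all windows with enough input, peaks included. When the libraries were exchanged the same limits found 201 bins (0.0245%), against 0.0181% over all windows, so at these limits the peak-free windows held fewer ChIP-rich than input-rich bins. That order turned when the ratio was scaled to the median ratio of peak-free windows, which gave 303 ChIP-rich and 83 input-rich bins, and in bins of 500 bp, with 57 and 22. Scaling to that median eases the ChIP limit and tightens the exchanged one, so the direction of this change was fixed in advance. Likewise, a regional ratio below 1 favours input-rich bins under the first scaling. Neither order by itself measures focal enrichment. The order also turned with more reads. From 25 reads the counts were 43 and 18, from 30 reads 20 and 3, and from 40 reads 4 and 0. In windows with 1 to 5 peaks, at least 2 kb from any peak, there were 696 bins against 180 exchanged, and from 30 reads 108 against 2.

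**Figure D5:**
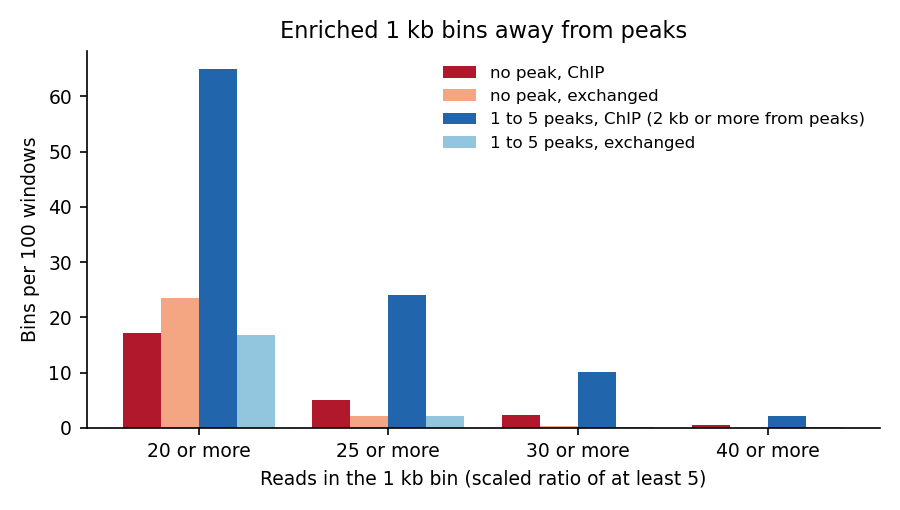
Number of 1 kb bins per 100 windows with a scaled ratio of at least 5 (y axis) against the least number of reads in the bin (x axis), for ChIP over input and with the libraries exchanged. At 20 reads peak-free windows have 17.2 ChIP-rich and 23.4 exchanged bins per 100 windows, against 65.0 and 16.8 in windows with 1 to 5 peaks; at 30 reads the values are 2.33 and 0.350 against 10.1 and 0.187.

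The 148 bins were faint. Their medians were 23 ChIP reads and 3 input reads, and 20 held at least 30 ChIP reads. They gathered in the less depleted windows. The 73 windows with a ratio of 1 or more held 61 of them, and the 307 windows below 0.8 held 7. By run length there were 0.304 bins per single window and 0.0758 per window in runs of 8 to 14. Most of the 148 bins were not at the border of listed peaks, since their median distance to a peak centre was 660 kb and 2 lay within 100 kb. They nevertheless lay nearer to peaks than the 10 kb bins of the class, whose median was 1.10 Mb. At least 1 Mb away lay 51 of the 148, against 55.1% of those 10 kb bins. A higher regional ratio by itself lets more bins pass the limits, and the share of bins owed to this was not tested.

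Strand, which took no part in choosing the bins, was ordered less in them than in listed peaks. At a bound site plus-strand reads lie before minus-strand reads at about the length of a fragment. Pairs with the minus-strand read 50 to 150 bp after the plus-strand read were therefore set against pairs with it 50 to 150 bp before. In 2589 bins with a peak centre in windows with 1 to 5 peaks there were 396695 pairs after and 105051 before, a quotient of 3.78. In the 2007 of them with 20 to 53 ChIP reads, the range of the peak-free bins, the quotient was 2.17, and 89.5% had more pairs after than before. Only the range was matched, since their median was 32 ChIP reads against 23 in the 148 bins. In the 148 bins there were 2487 and 2055 pairs, a quotient of 1.21, and 93 bins (62.8%) had more pairs after. Single bins varied widely. The bin on chromosome 4 from 103557001 had 23 pairs after and 0 before, and that on chromosome 1 from 115678001 had 3 and 15. Both were picked after their values were seen. Input-rich bins of peak-free windows, measured on input reads, gave 1.36, and all 10933 bins of peak-free windows with at least 20 ChIP reads gave 1.31. Enriched bins away from peaks in windows with 1 to 5 peaks gave 1.18. The best 150 bp of a bin, with reads moved by 45 bp towards the fragment's middle, held a median of 8 reads in the 148 bins, 8 in the input-rich bins and 14 in the bins with a peak. The listed peaks were called on these reads, and whether strand took part in that call is a detail not given in the sources used.

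The bin with the most ChIP reads lay on chromosome 1 from 152155001 to 152156000, where 53 ChIP reads stood against 7 in the input (ratio 7.17, 3.25 to 18.7). It was 2373 kb from the nearest peak, in a run of 8 windows, and had 63 pairs after and 59 before. The second, on chromosome 2 from 49273001 to 49274000, held 50 ChIP and 9 input reads (5.26, 2.56 to 12.2) and had 72 pairs after and 63 before. Both thus had many reads without the order of strands that listed peaks had, although the best 150 bp of the second held 15 reads. Bins with 40 ChIP and 6 input reads each (ratio 6.31, 2.66 to 18.2) lay on chromosome 2 from 132571001 and on chromosome 13 from 35748001. The other 6 of the 10 bins with the most reads held 35 to 38 ChIP and 3 to 7 input reads. They lay on chromosome 6 from 37800001, chromosome 12 from 15842001, chromosome 15 from 64142001, chromosome 16 from 52372001, chromosome 11 from 63738001 and chromosome 18 from 11983001. On chromosome 12 the pairs were 47 after and 27 before, and on chromosome 18 they were 27 and 37. All 10 were picked for their reads, which raises their ratios.

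High input was no large part of the class. Bins of 1 kb with at least 50 input reads numbered 65 in 29 peak-free windows, with 5706 ChIP and 6368 input reads and a ratio of 0.848 (0.818 to 0.879). That is near the 0.860 of the class as a whole. In windows with 1 to 5 peaks, 204 such bins had a ratio of 0.872 (0.855 to 0.889), against 1.02 for that class. Bins in both classes were picked for high input, which lowers their ratios.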

How the data were processed

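The authors deposited aligned 35 bp reads, 1 per line, with a score column that holds only 0, and a peak list with 1 score per 150 bp peak, the peak caller's value on an undefined scale. Per the submitters' processing notes, the build is mm8 and HOMER was used. The name of the deposited peak list holds CCAT, the name of a peak caller. The aligner, the peak-calling settings and control, and any removal of repeats were not given in the sources used here. No strand position occurred more than once in a library, so repeats were absent. The 5′ ends of reads were counted as mapped, in 1-based windows and bins, and the scale was 1.06, ChIP over input reads on chromosomes 1 to 19, X and Y. Windows with intervals, runs, 10 kb spreads and 1 kb bins were computed with Python 3.11.15, numpy 2.4.6, pandas 2.3.3 and scipy 1.17.1, and figures with matplotlib 3.10.9. Ratios, spread and run finding were tested on simulated data with known values. The intervals, and bins simulated without any spread, were also run but were not held to a limit.

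Named regions are the 10 longest runs (the other 4 runs of 8 windows, tied in length with the last, were added after their values were seen), the 5 lowest and 5 highest windows with at least 5000 input reads, the 10 enriched bins with the most ChIP reads and 3 windows on either side of the input limit. The windows, limits and comparisons were chosen with earlier results of these data known. The 50 kb stretches, the edge profile, the correlations, the limit of 1.2 for raised bins and the groups by ratio were added after the data had been seen. Genes and sequences in the regions were not analysed here, because the gene and sequence tables used here belong to a different build.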

Additional observations from a re-analysis of the deposited data

How the results depend on the processing

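With 1 library per group, all values describe these 2 libraries, and windows are not replicates. Depth gives precise 1 Mb ratios but leaves single 1 kb bins uncertain by several-fold. A count or length was taken as moved when it differed by over 1.5 times, the quotient beyond its counting interval, and the spread by any change at 3 digits. The median ratio was taken as moved when it differed by more than the pooled ratio's counting interval reached to either side. That reach is not an error of the median itself. Of 39 alternatives 20 moved a value. The order of ChIP-rich and input-rich 1 kb bins (148 and 201) turned in 3 of them: 20 and 3 from 30 reads, 303 and 83 scaled to the median of peak-free windows, and 57 and 22 in 500 bp bins. Only peaks with a score of at least 10 for the longest run, and the spread at 8000 to 9000 input reads, were settings added after seeing the data. The number of peak-free windows was 2451 with 500 kb windows, 240 with 2 Mb windows and 1657 when peaks had to score at least 10. With that score limit the longest run rose from 14 Mb to 29 Mb (chromosome 13, 67000001 to 96000000) and the median ratio to 0.911. The median ratio was 0.822 with the grid moved by 500 kb and 0.840 scaled by reads away from peaks. The quotient to windows with peaks was 0.853 without reads near peaks, 0.884 against 1 to 2 peaks, 0.801 against 3 to 5 peaks and 0.852 at 8000 to 10000 input reads. The spread was 0.170 in 5 kb bins, 0.0783 in 50 kb bins, 0.136 from 20 input reads and 0.122 at 8000 to 9000 input reads. Enriched bins numbered 20 at a ratio of 10 and 18 with at least 5 input reads. Fewer, smaller or stricter units change counts by construction, as does scaling to the median of peak-free windows. Otherwise the cause was not tested. No paired analysis was possible because there was only 1 library per group, with a number given in accession order.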

Other observations

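Chromosome X stood outside the windows above, which were taken from the autosomes. Of its 149 windows of 1 Mb with at least 2000 input reads, 106 (71.1%) held 0 EBF1 peaks. Their ratio ran from 0.721 through a median of 0.793 to 1.17, with a pooled value of 0.819 (0.816 to 0.821), and their median input was 7988 reads. The 41 windows on X with 1 to 5 peaks had a median ratio of 0.901. The scale used here holds reads of X and the autosomes together, and input reads per window were lower on X, so levels are set side by side without a comparison.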
